A study of Mus musculus with 9 samples.

Results

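Primary cultures of mouse microglia were read for 9 genes of fibroblasts and of the meninges: the fibrillar collagen genes Col1a1, Col1a2 and Col3a1, the proteoglycan genes Dcn (decorin), Lum (lumican) and Ogn (osteoglycin), the matrix genes Fbln1 (fibulin 1) and Postn (periostin), and Foxc1, a forkhead transcription factor gene of the developing meninges. They were picked by gene symbol from the table of log2 expression values, and all 9 were found, each on 1 of 21212 rows. The 9 were proposed as a trace of cells other than microglia and of their response to IL-4, with the values known. The IL-4 values therefore count among what chose them and are given as a description without a test.

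The cells came from brains of newborn wild-type CD-1 mice, pooled by litter, and the methods describe removal of the meninges before the tissue was minced and enrichment of microglia on a Percoll density gradient. They were grown for 5 to 7 days with 10 ng/ml each of M-CSF and GM-CSF, kept overnight in medium without serum and stimulated for 4 h. Total RNA was measured on Affymetrix Mouse Exon 1.0 ST arrays, 3 for each of 20 ng/ml IL-4 (M2a-skewed), 100 ng/ml LPS (M1-skewed) and PBS alone (resting). Each RNA is that of a whole culture, so more cells of a type and more RNA per cell cannot be told apart.

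Fibroblasts are the cells that build connective tissue. They secrete type I collagen, a triple helix whose chains are encoded by Col1a1 and Col1a2, and type III collagen, encoded by Col3a1. Decorin, lumican and osteoglycin are small leucine-rich proteoglycans that bind collagen fibrils and shape their spacing and width. Fibulin 1 sits in elastic fibres and basement membranes, and periostin is a matricellular protein that helps to cross-link collagen. In the brain such cells lie in the meninges and along larger vessels, while microglia are myeloid cells. IL-4 signals through IL4RA and the transcription factor STAT6, and periostin is a known product of fibroblasts and epithelium under IL-4 or IL-13.

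Promoter sequences are given because most of the genes were high on the same arrays. RefSeq windows (GRCm38.p6, 250 bases before to 50 after a start site) were matched for 6 of the 9 genes, with 8 windows in all. The 250 bases before the start site are shown for a collagen gene, the periostin gene and the transcription factor gene, 5′ to 3′ and in lower case with motif letters in capitals.
Col1a2, chr6:4505368-4505617, plus strand: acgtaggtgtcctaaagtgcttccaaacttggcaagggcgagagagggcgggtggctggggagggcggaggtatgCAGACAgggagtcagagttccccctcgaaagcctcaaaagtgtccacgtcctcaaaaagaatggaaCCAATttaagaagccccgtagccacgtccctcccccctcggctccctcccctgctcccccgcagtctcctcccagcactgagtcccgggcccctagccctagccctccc
Postn, chr3:54360857-54361106, plus strand: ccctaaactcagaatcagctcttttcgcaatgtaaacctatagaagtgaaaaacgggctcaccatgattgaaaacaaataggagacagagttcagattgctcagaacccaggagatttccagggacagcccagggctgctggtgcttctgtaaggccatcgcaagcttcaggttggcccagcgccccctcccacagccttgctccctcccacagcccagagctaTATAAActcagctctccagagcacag
Foxc1, chr13:31806396-31806645, plus strand: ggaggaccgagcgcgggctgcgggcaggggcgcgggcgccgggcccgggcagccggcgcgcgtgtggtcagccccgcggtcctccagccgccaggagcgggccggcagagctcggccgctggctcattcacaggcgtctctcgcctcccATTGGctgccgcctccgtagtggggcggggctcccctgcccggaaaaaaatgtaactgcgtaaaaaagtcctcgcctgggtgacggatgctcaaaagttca
The capitals mark CAGACA, a SMAD-type element, and CCAAT in Col1a2, the TATA box TATAAA in Postn, which starts 26 bases before the start site, and the reverse complement of CCAAT in Foxc1. Over the whole 300-base windows and both strands, TATAAA was found in 3 of the 6 genes (13.6% of all 32851 windows of this length), CCAAT in 3 (37.4%) and CAGACA in 3 (21.0%). Postn has another window, without TATAAA. The palindromic STAT element, TTC and GAA with 4 bases between them, was in none of the 6 genes and in 6.95% of all windows. A match is a run of letters and not a site of binding.

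Replicate 3 of LPS and replicate 3 of PBS did not resemble replicates 1 and 2 of their condition. In both, 15 of 15 measured motile cilia genes lay above the other replicates (median difference 1.50 in LPS and 1.50 in PBS, log2), and oligodendrocyte lineage markers were higher by medians of 0.80 and 0.69. The IL-4 arrays showed no such split (0.049 and 0.008). Of 12 measured microglia markers, 8 lay above the other replicates on LPS replicate 3 and 10 on PBS replicate 3 (medians 0.14 and 0.36). On IL-4 replicate 3, 8 did (median 0.059). Of 10 astrocyte markers, 7, 9 and 3 did in the same order (0.53, 0.65 and 0.004). Among the microglia markers, Fcrls ran from 7.11 to 10.35 and Cx3cr1 from 7.60 to 10.86. Csf1r and Tyrobp, named after their values had been seen, varied less. Csf1r, the receptor that microglia need to survive, had log2 values between 10.77 and 11.90. Tyrobp, a microglial signaling adaptor, averaged 12.26 with IL-4, 12.16 with LPS and 12.45 with PBS. Whether the replicates are separate preparations is not stated, so p-values measure only the spread between these arrays.

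The mean of all 9 genes was highest with IL-4, and the proteoglycan gene Dcn had the largest difference from PBS, followed by Lum, Foxc1, Fbln1 and Postn. The median difference was 0.75 on the log2 scale, against −0.017 over all rows. On 8 of the 9 genes every IL-4 array lay above every PBS array (14.7% of all rows), with Col1a1 as the exception, and on none below (14.3%). In the fit 7 of 9 passed an adjusted p of 0.05, higher and none lower, against 3.35% of all rows higher, 2.05% lower and 5.4% in either direction, and nothing is read from this, since the same contrast chose the genes. All values are deposited log2 values, in which a step of 1 is a doubling, and levels are compared only between arrays, not between genes.

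**Figure D1:**
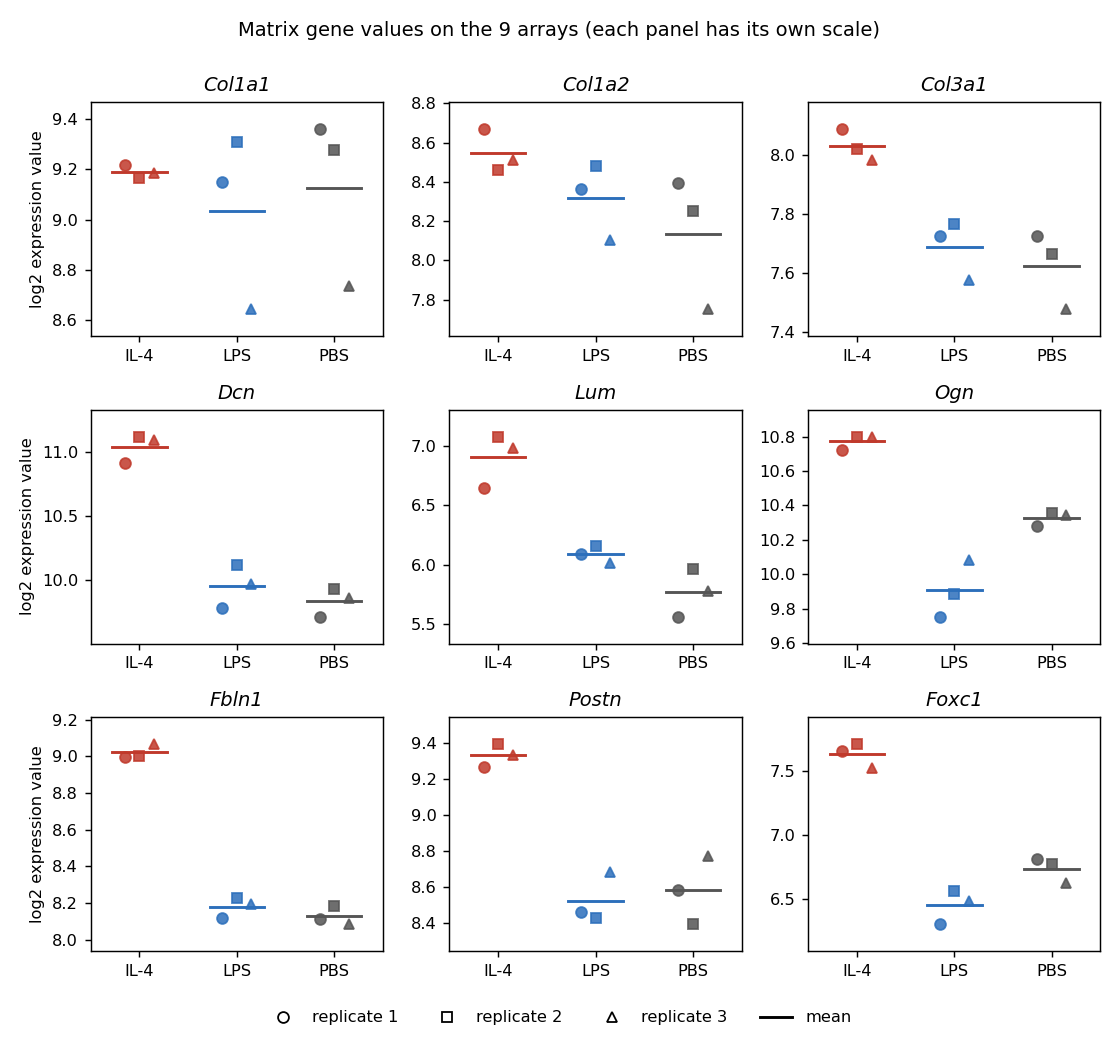
Log2 expression values of the 9 genes (vertical axes, each panel with its own scale) on the IL-4, LPS and PBS arrays (horizontal axes). Marker shapes give the replicate number and lines the mean of 3 arrays. Dcn, Lum, Ogn, Fbln1, Postn, Foxc1, Col3a1 and Col1a2 lie above all PBS arrays on all 3 IL-4 arrays, and Col1a1 does not.

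Among the collagens, Col3a1 had 8.09, 8.02 and 7.98 on the IL-4 arrays, 7.72, 7.77 and 7.58 on the LPS arrays and 7.72, 7.67 and 7.48 on the PBS arrays. The IL-4 arrays are apart from all others, and the LPS and PBS arrays overlap. The difference from PBS was 0.41 ± 0.079 (SE) with IL-4, or 1.33-fold, and 0.066 ± 0.079 with LPS (limma adjusted p = 0.558).
Col1a2 had 8.67, 8.46 and 8.51 with IL-4, 8.37, 8.48 and 8.10 with LPS, and 8.39, 8.25 and 7.75 with PBS. Only the IL-4 and PBS arrays are apart, and the lowest array of each of LPS and PBS is replicate 3. Its difference of 0.41 ± 0.17 with IL-4 became 0.22 when set against PBS replicates 1 and 2 alone and 0.79 against PBS replicate 3. With LPS it was 0.18 ± 0.17 (adjusted p = 0.430).
Col1a1 had 9.22, 9.17 and 9.19 with IL-4, 9.15, 9.31 and 8.65 with LPS, and 9.36, 9.28 and 8.74 with PBS. All 3 conditions overlap, and the IL-4 arrays lie between PBS replicate 3 and the other PBS arrays. The difference was 0.064 ± 0.20 with IL-4 and turned to −0.13 against PBS replicates 1 and 2. With LPS it was −0.091 ± 0.20 (adjusted p = 0.754), and the 95% interval of the difference ran from −0.54 to 0.36.

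Among the small leucine-rich proteoglycans, Dcn, which binds collagen fibrils and also TGF-beta, had 10.92, 11.12 and 11.10 with IL-4, 9.78, 10.12 and 9.97 with LPS, and 9.71, 9.93 and 9.86 with PBS. The IL-4 arrays are far above the rest, and the LPS and PBS arrays overlap. The difference with IL-4 was 1.21 ± 0.10, or 2.31-fold, and it was 1.22 against PBS replicates 1 and 2 and 1.18 against PBS replicate 3. With LPS it was 0.12 ± 0.10 (adjusted p = 0.393).
Lum lies next to Dcn on chromosome 10. It had 6.65, 7.08 and 6.98 with IL-4, 6.09, 6.16 and 6.01 with LPS, and 5.56, 5.97 and 5.78 with PBS. None of the conditions overlap, in the order IL-4, LPS, PBS. Its PBS level, a mean of 5.77, is not shown to be above background. The difference was 1.14 ± 0.13 with IL-4 (2.20-fold) and 0.32 ± 0.13 with LPS, where it missed the threshold (limma adjusted p = 0.0922). With the replicate number as a block, which pairs LPS and PBS arrays, Lum rose with LPS by the same 0.32 (limma adjusted p = 0.0249 over 9 arrays and 0.0246 over 6). It also passed without IL-4 replicate 1 (limma adjusted p = 0.0498) and with array medians subtracted (0.43, adjusted p = 0.0344).
Ogn had 10.72, 10.80 and 10.80 with IL-4, 9.75, 9.89 and 10.09 with LPS, and 10.28, 10.35 and 10.35 with PBS. The PBS arrays lie between the IL-4 and the LPS arrays, and no conditions overlap. The difference with IL-4 was 0.45 ± 0.081 (1.36-fold). With LPS Ogn fell by 0.42 ± 0.081 (limma adjusted p = 0.00362). The call held in 17 of 18 alternatives and was lost with the test that the methods name, adjusted here over all rows (adjusted p = 0.0534). The methods do not describe that adjustment. The paper lists Ogn among predicted targets of 1 microRNA that were lower with LPS, selected at an unadjusted p under 1e-04 by its t-test. That kind of test on the values used here put 0 of the 9 genes under this p with LPS.

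Of the other matrix genes, Fbln1 had 9.00, 9.00 and 9.07 with IL-4, 8.12, 8.23 and 8.19 with LPS, and 8.11, 8.18 and 8.08 with PBS. The IL-4 arrays stand apart and differ little among themselves. The difference was 0.89 ± 0.052 with IL-4 (1.86-fold) and 0.051 ± 0.052 with LPS (adjusted p = 0.487). The LPS and PBS arrays overlap.

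Postn, the gene with a known IL-4 link in fibroblasts, had 9.27, 9.40 and 9.34 with IL-4, 8.46, 8.43 and 8.68 with LPS, and 8.58, 8.39 and 8.78 with PBS. Unlike the collagens, it was highest on replicate 3 within LPS and within PBS. The difference was 0.75 ± 0.11 with IL-4 (1.68-fold) and −0.059 ± 0.11 with LPS (adjusted p = 0.703). The LPS difference was 0.037 without PBS replicate 3.
Foxc1, the transcription factor, had 7.66, 7.71 and 7.53 with IL-4, 6.30, 6.56 and 6.49 with LPS, and 6.81, 6.77 and 6.63 with PBS. No conditions overlap. The difference with IL-4 was 0.90 ± 0.086 (1.86-fold). With LPS Foxc1 fell by 0.29 ± 0.086 (limma adjusted p = 0.0291), a call that was lost without LPS replicate 1 (−0.21, adjusted p = 0.0919), PBS replicate 1 (−0.25, adjusted p = 0.0931) or PBS replicate 2 (−0.27, adjusted p = 0.0880). It was also lost with array medians subtracted (−0.17, adjusted p = 0.151), over 6 arrays (adjusted p = 0.0584), with quantile normalization (adjusted p = 0.0517) and with the test that the methods name (adjusted p = 0.115).

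With LPS, 2 of the 9 genes fell (Ogn and Foxc1), none rose and 7 did not pass, against 22.4% of all rows lower, 15.4% higher and 37.8% in either direction. The share lower, 22.2%, is close to that of all rows. Of the 9, 2 lay below all PBS arrays on every LPS array (25.4% of all rows) and 1, Lum, above (20.4%). The median difference was 0.051, against 0.0051 over all rows. The IL-4 and LPS comparisons share their PBS arrays, and the PBS arrays also took part in choosing the genes. The IL-4 mean exceeded the LPS mean by 0.16 (Col1a1), 0.23 (Col1a2), 0.34 (Col3a1), 0.81 (Postn), 0.82 (Lum), 0.84 (Fbln1), 0.87 (Ogn), 1.09 (Dcn) and 1.18 (Foxc1), given without a test.

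**Figure D2:**
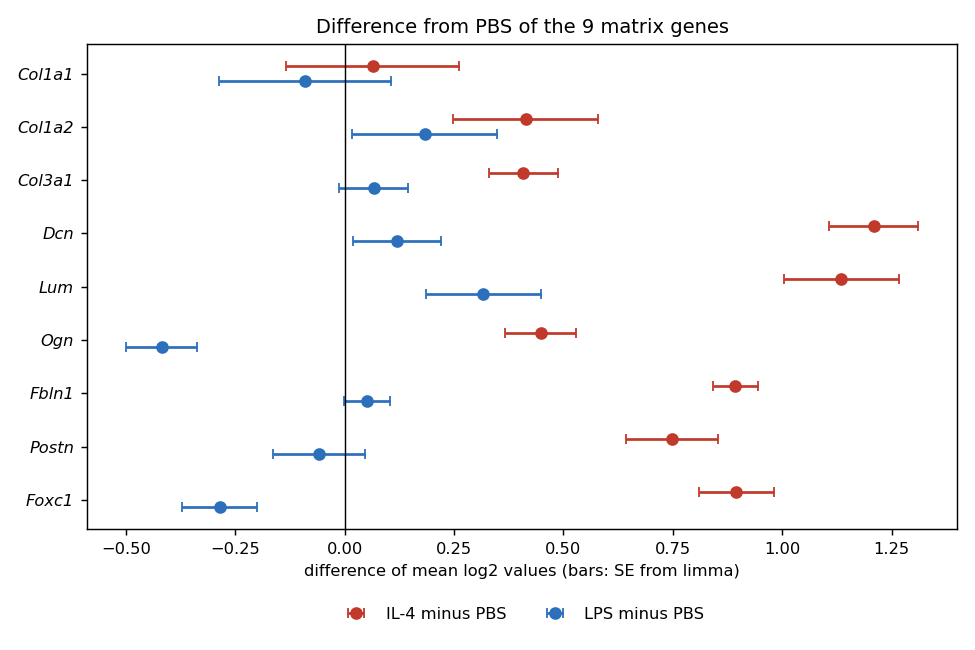
Difference of mean log2 values from PBS (horizontal axis) of each of the 9 genes (vertical axis), with IL-4 above and LPS below in each row. Points are differences of 3 against 3 arrays and bars the SE from limma. With IL-4 the differences run between 0.064 (Col1a1) and 1.21 (Dcn), and with LPS between −0.42 (Ogn) and 0.32 (Lum).

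Once the condition means were taken out, the collagens and the other genes varied differently. Deviations of the collagens moved together over the 9 arrays (Pearson r of 0.94 for Col1a1 and Col1a2, 0.95 for Col1a1 and Col3a1, 0.98 for Col1a2 and Col3a1) and against those of Postn (−0.85, −0.82 and −0.82). Dcn went with its neighbour Lum (0.73) and with Fbln1 (0.71) but not with the collagens (−0.049, −0.21 and −0.23). These values rest on 9 arrays with 3 condition means removed and share the split of replicate 3. Replicate 3 differed from the mean of replicates 1 and 2 by −0.58 (LPS) and −0.58 (PBS) in Col1a1, by −0.32 and −0.57 in Col1a2 and by 0.24 and 0.29 in Postn. In Dcn it differed by 0.023 and 0.036. The motile cilia and oligodendrocyte genes moved with the same arrays, and their part in the collagen values was not tested. The drop on replicate 3 was not limited to the collagens. Outside the 9, Bgn differed by −0.83 (LPS) and −0.99 (PBS), Loxl1 by −1.04 and −1.17 and Igfbp2 by −0.84 and −0.90, but P4ha3 by 0.70 and 0.59. In the 21 collagen processing genes read below, the medians were −0.17 and −0.205, with 5 and 4 genes above both other replicates. Without removing condition means, 35 of the 36 pairs of genes correlated above 0, with a median r of 0.82, a value that includes the distance of the IL-4 arrays from the others.

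**Figure D3:**
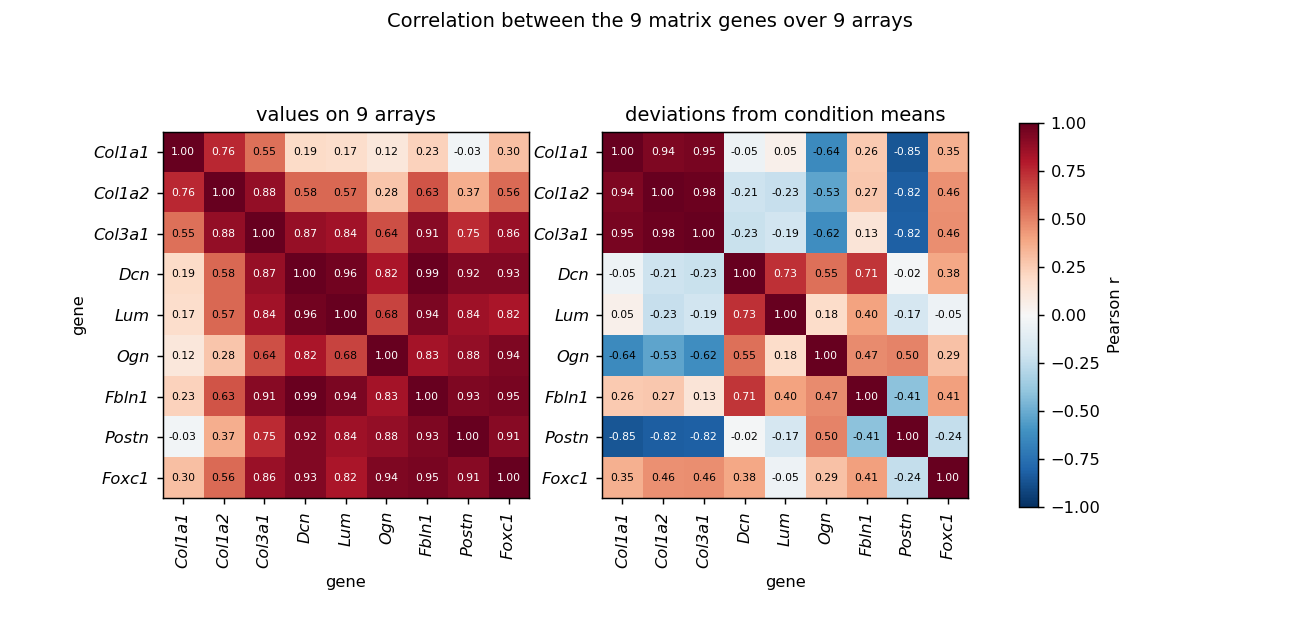
Pearson r between each pair of the 9 genes (both axes) over 9 arrays, from the values on the left and from deviations from condition means on the right. Colour runs between −1 (blue) and 1 (red). On the right the 3 collagens form a block with r of 0.94 to 0.98, and Postn is at −0.82 to −0.85 with them.

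Other genes of the same cells and matrix were read from lists of textbook genes that hold none of the 9. The lists were written with earlier results of these data known, so their counts are a description and no independent check of the 9 genes. The closest list, 25 genes of fibroblast and meningeal identity, had 10 genes that rose with IL-4 (40.0%, against 3.35% of all rows), none that fell and 15 that did not pass, with a median of 0.31 against −0.017. The same list gave 10 without PBS replicate 3, where 5.03% of all rows rose, and 13 higher and 1 lower without replicate 3 of LPS and PBS, where 16.6% rose. It gave 8 with array medians subtracted (32.0%, against 2.16% of all rows) and 9 with the replicate block over 9 arrays (36.0%, against 3.78%). Igf2, a growth factor gene of the meninges, rose by 1.64 ± 0.25 (limma adjusted p = 0.00736) to a mean of 10.14 with IL-4, against 8.50 with PBS, a call lost with the methods' t-test (adjusted p = 0.0819). Aldh1a2, which makes retinoic acid in the meninges, rose by 1.58 ± 0.25 (adjusted p = 0.00972), a call lost without IL-4 replicate 2 (1.54, adjusted p = 0.0505) and with the methods' t-test (adjusted p = 0.0858). Gpc3, a cell surface proteoglycan gene, rose by 1.38 ± 0.080 (adjusted p = 7.54e-05) and kept its call under all 18 alternatives.
Foxc2, a close relative of Foxc1 named here after its value had been seen, rose by 1.30 ± 0.21 (adjusted p = 0.0111) to 6.93 with IL-4, against 5.63 with PBS, and was lost with the methods' t-test (adjusted p = 0.109). The Foxc2 row is 1 of the 7071 dimmest, and its PBS level is not shown to be above background. The other 6, also named after their values had been seen, were Foxd1, Tbx18, Crabp2, Zic1, Cdh11 and Prrx1, with differences of 0.37 (Prrx1) to 0.69 (Foxd1). The methods' t-test lost Foxd1 (adjusted p = 0.113) and Crabp2 (adjusted p = 0.0930). Subtracting array medians lost Tbx18 (limma adjusted p = 0.0526) and Prrx1 (limma adjusted p = 0.0556). Prrx1 was also lost with quantile normalization (limma adjusted p = 0.0653) and the replicate block over 9 arrays (limma adjusted p = 0.0559). Leaving out 1 array ended the call of Foxd1 (IL-4 replicate 1 or 2 or PBS replicate 2, 0.62 to 0.69), of Crabp2 (IL-4 replicate 1 or 3, 0.49 and 0.53), of Tbx18 (any IL-4 array, LPS replicate 1, PBS replicate 1 or 2, 0.61 to 0.74) and of Prrx1 (any array but LPS replicates 1 and 3, 0.35 to 0.39). Among the 15 that did not pass were the fibroblast genes Dpt (0.041), Pi16 (0.081) and Mgp (−0.19), likewise named after their values had been seen.

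With LPS 6 of the 25 genes rose (24.0%, against 15.4% of all rows) and 1 fell, with a median of 0.053. Fap, the fibroblast activation protease gene, rose by 2.18 ± 0.070 (limma adjusted p = 9.76e-08) to 6.74 with LPS, against 4.56 with PBS, on 1 of the 7071 dimmest rows. Prrx1, a mesenchymal homeobox gene, rose by 1.22 ± 0.087 and Cdh11, a mesenchymal cadherin gene, by 0.98 ± 0.070 (adjusted p = 1.04e-05 and 1.05e-05). Zic2, a zinc finger gene of the early meninges and brain, was the 1 that fell, by 0.81 ± 0.081 (adjusted p = 7.97e-05).

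**Figure D4:**
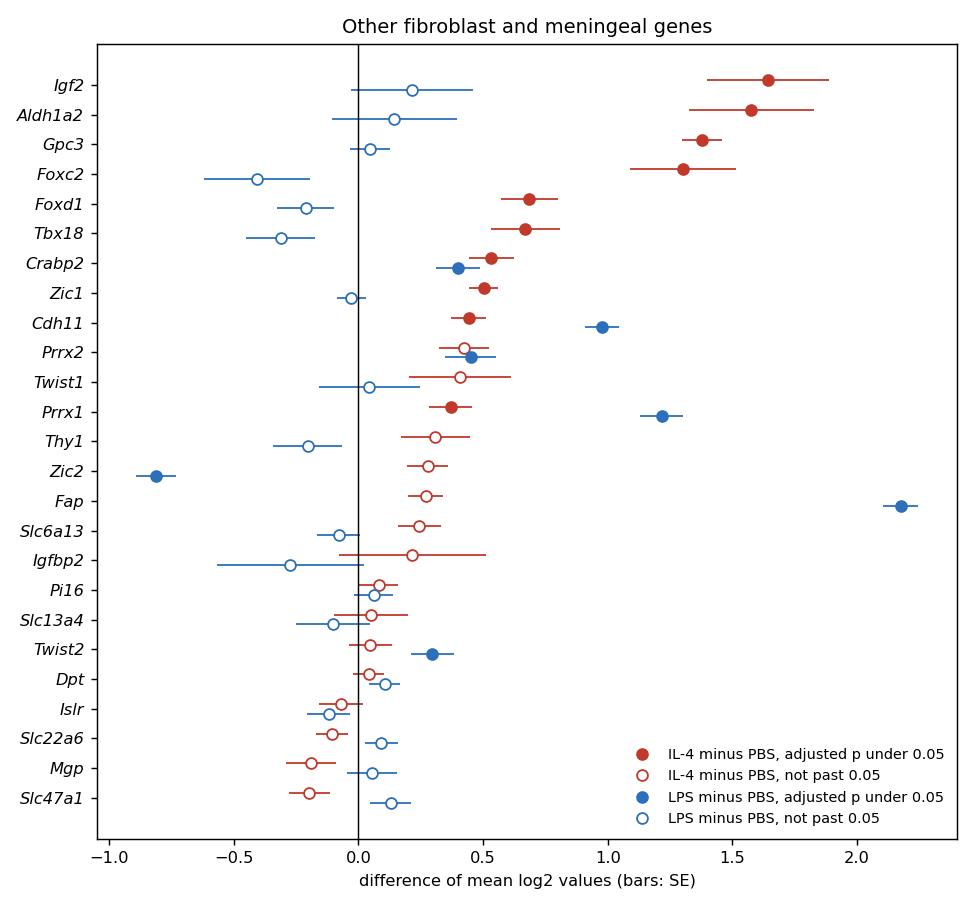
Difference of mean log2 values from PBS (horizontal axis) for 25 other fibroblast and meningeal genes (vertical axis), with IL-4 in red above and LPS in blue below in each row. Filled points passed an adjusted p of 0.05 (limma, 3 against 3 arrays) and bars are SE. With IL-4, 10 genes are filled and all lie above 0, and Fap at 2.18 is the largest rise with LPS.

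In the matrix, the elastic fibre and matricellular list had 5 of 19 genes higher with IL-4 and none lower (26.3%, against 3.35% of all rows higher and 2.05% lower, median 0.30). With array medians subtracted 1 of 19 rose (5.26%, against 2.16% of all rows). Nid1, which links laminin and type IV collagen in basement membranes, rose by 0.79 ± 0.058 (adjusted p = 2.48e-04) and kept the call under all 18 alternatives. Efemp1, a fibulin gene, rose by 0.76 ± 0.16 (adjusted p = 0.0327) and Fbn2, a fibrillin gene, by 0.47 ± 0.089 (adjusted p = 0.0214), and these calls held in 9 and 10 of 18 alternatives. Both were lost without any 1 IL-4 array (0.67 to 0.81 and 0.46 to 0.47) or without PBS replicate 2 (0.82 and 0.48), and that of Efemp1 also without LPS replicate 1 (0.76) or PBS replicate 1 (0.85). With LPS 4 rose and 2 fell (21.1% and 10.5%, against 15.4% and 22.4% of all rows), led by the proteoglycan gene Vcan (2.58 ± 0.26, adjusted p = 8.94e-05), the latent TGF-beta binding gene Ltbp1 (1.33 ± 0.094, adjusted p = 1.05e-05) and Tnc, the tenascin C gene (1.19 ± 0.25, adjusted p = 0.00504). Tnc was lost with the methods' t-test (adjusted p = 0.0822).
Of 15 other collagen genes none passed in either comparison (limma, medians 0.11 with IL-4 and 0.074 with LPS). With LPS, 5 of 15 rose with array medians subtracted (33.3%, against 27.7% of all rows), 4 with quantile normalization (26.7%, against 16.2%) and 2 with the replicate block over 9 arrays (13.3%, against 17.2%). With IL-4, 1 rose with that block (6.67%, against 3.78%) and 2 without replicate 3 of LPS and PBS (13.3%, against 16.6%). Of 12 other small leucine-rich proteoglycan genes none passed with IL-4 (median 0.25). With LPS Prelp alone fell (8.33%, against 22.4% of all rows), by 0.37 ± 0.10 (adjusted p = 0.0177). That call was lost without LPS replicate 1 (−0.29, adjusted p = 0.0556) or PBS replicate 3 (−0.30, adjusted p = 0.0512).
Of 21 collagen processing genes, 9 rose and 5 fell with LPS (42.9% and 23.8%, against 15.4% and 22.4% of all rows), led by the cross-linking enzyme gene Lox (1.70 ± 0.33, adjusted p = 0.00353), the procollagen protease gene Adamts14 (0.95 ± 0.13, adjusted p = 4.54e-04) and the lysyl hydroxylase gene Plod3 (0.66 ± 0.066, adjusted p = 7.97e-05). Lox was lost with the methods' t-test (adjusted p = 0.0760). With IL-4 2 of 21 rose (9.52%, against 3.35% of all rows, median 0.083). These were Adamts3 (0.25 ± 0.049, adjusted p = 0.0251), on 1 of the 7071 dimmest rows, and the collagen chaperone gene Serpinh1 (0.21 ± 0.048, adjusted p = 0.0428). Their calls held in 10 of 17 and 5 of 18 alternatives. Leaving out any 1 IL-4 array ended both (0.25 and 0.19 to 0.23), as did leaving out PBS replicate 1 (0.27 and 0.23) or 2 (0.26 and 0.21), and that of Serpinh1 was also lost without LPS replicate 1 or 2 (0.21) or PBS replicate 3 (0.19). Of 10 TGF-beta target and contractile genes, 1 rose with IL-4 (10.0%, against 3.35% of all rows), Ccn2 (0.70 ± 0.12, adjusted p = 0.0120, and 0.123 with the methods' t-test). With LPS 2 rose and 3 fell (20.0% and 30.0%, against 15.4% and 22.4% of all rows).

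Markers of other cell types were set beside the 9 genes on each array. The summed linear level of the 9 genes, in arbitrary intensity units, was 6324 to 6729 on the IL-4 arrays, 3628 to 4074 on the LPS arrays and 3914 to 4214 on the PBS arrays. That of the fibroblast and meningeal identity list was 10165 to 10842, 8973 to 9714 and 7522 to 8376 in the same order of conditions. The sum of the 9 genes overlapped between LPS and PBS, whereas that of the identity list did not. A linear sum is weighted to the rows with the highest values, which in the 9 genes are Dcn and Ogn. In the identity list Cdh11 averaged 10.99 with LPS and 10.01 with PBS, and Prrx1 10.42 and 9.21. The median LPS difference of that list was only 0.053, with 15 of 25 above 0, so the sums do not describe the lists as a whole.
Motile cilia genes had sums of 5495 to 6564 with IL-4, 1878 to 6116 with LPS and 2666 to 8391 with PBS, and 0 of 15 passed in either comparison (limma). Without replicate 3 of LPS and PBS, 15 of 15 rose with IL-4 by a median of 1.05, where 16.6% of all rows rose. The sum of 8391 was that of PBS replicate 3, above all IL-4 arrays, so this count depends on which arrays were left out. Their part in the IL-4 values of the matrix genes was not tested, while the median difference of the 9 genes was 0.75 with all arrays and 0.84 without these replicates.
Endothelial markers had 3 of 11 higher with IL-4 (27.3%, against 3.35% of all rows) and none lower (2.05% of all rows), with a median of −0.076. Their sums were 1758 to 1851 with IL-4, 1167 to 1312 with LPS and 1404 to 1450 with PBS. The 3 higher were Cdh5 (1.14 ± 0.16, adjusted p = 0.00505), the VE-cadherin gene, Pecam1 (0.79 ± 0.11, adjusted p = 0.00459), which myeloid cells also express, and Slco1a4 (0.54 ± 0.13, adjusted p = 0.0440), an organic anion transporter gene. The Pecam1 row is 1 of the 7071 dimmest. The Slco1a4 call was lost without any 1 IL-4 array (0.53 to 0.56), LPS replicate 2 (0.54) or PBS replicate 1 or 2 (0.48 and 0.51). The methods' t-test lost Cdh5 (adjusted p = 0.0640) and Pecam1 (adjusted p = 0.0815). Of the 8 that did not pass, Cldn5 (−0.23), Kdr (−0.32) and Tie1 (−0.21) were among those lower, and Emcn (0.28) and Tek (0.13) were higher. These were named after their values had been seen. With LPS Slco1a4 was the 1 that fell (−0.83), 9.09% of the list against 22.4% of all rows. Their part in the values of the 9 genes was not tested.
Of 10 mural cell markers none passed in either comparison, with sums of 4625 to 4912 (IL-4), 3008 to 5458 (LPS) and 3700 to 6283 (PBS). With array medians subtracted 3 of 10 rose with LPS (30.0%, against 27.7% of all rows). Without replicate 3 of LPS and PBS 1 rose and 1 fell in each comparison (10.0% each, against 13.5% to 28.3% of all rows). Of 8 choroid plexus markers none passed with IL-4, and Kcnj13 and Otx2 fell with LPS (25.0%, against 22.4% of all rows). Of 10 astrocyte markers none passed with IL-4 and Slc1a2 rose with LPS (10.0%, against 15.4% of all rows). Of 10 oligodendrocyte lineage markers none passed with IL-4 and Olig1 fell with LPS (10.0%, against 22.4%). Of 11 neuron markers Gad1 fell with IL-4 (9.09%, against 2.05%) and 3 rose with LPS (27.3%, against 15.4%). Of 12 microglia markers 1 fell with IL-4 (Trem2, −0.47, 8.33%, against 2.05%). With LPS 8 of the 12 fell (66.7%, against 22.4%) and 1 rose (8.33%, against 15.4%). Without replicate 3 of LPS and PBS, where 16.6% of all rows rose and 13.5% fell with IL-4, 7 of 10 astrocyte markers rose and 1 fell with IL-4, 5 of 10 oligodendrocyte lineage markers rose and 2 fell, and 6 of 12 microglia markers rose and 2 fell. These calls are against PBS replicates 1 and 2 alone and depend on which arrays were left out. The astrocyte sum was 15633 to 15999 with IL-4, 13123 and 13219 on PBS replicates 1 and 2, and 19404 on PBS replicate 3. The oligodendrocyte sum was 3689 to 4393 with IL-4, 3160 and 3204 on PBS replicates 1 and 2, and 6227 on PBS replicate 3. The part of these cell types in the values of the 9 genes was not tested. The list sums of microglia markers were 21903 to 23432 (IL-4), 17752 to 18765 (LPS) and 20931 to 26668 (PBS), the last on PBS replicate 3.

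**Figure D5:**
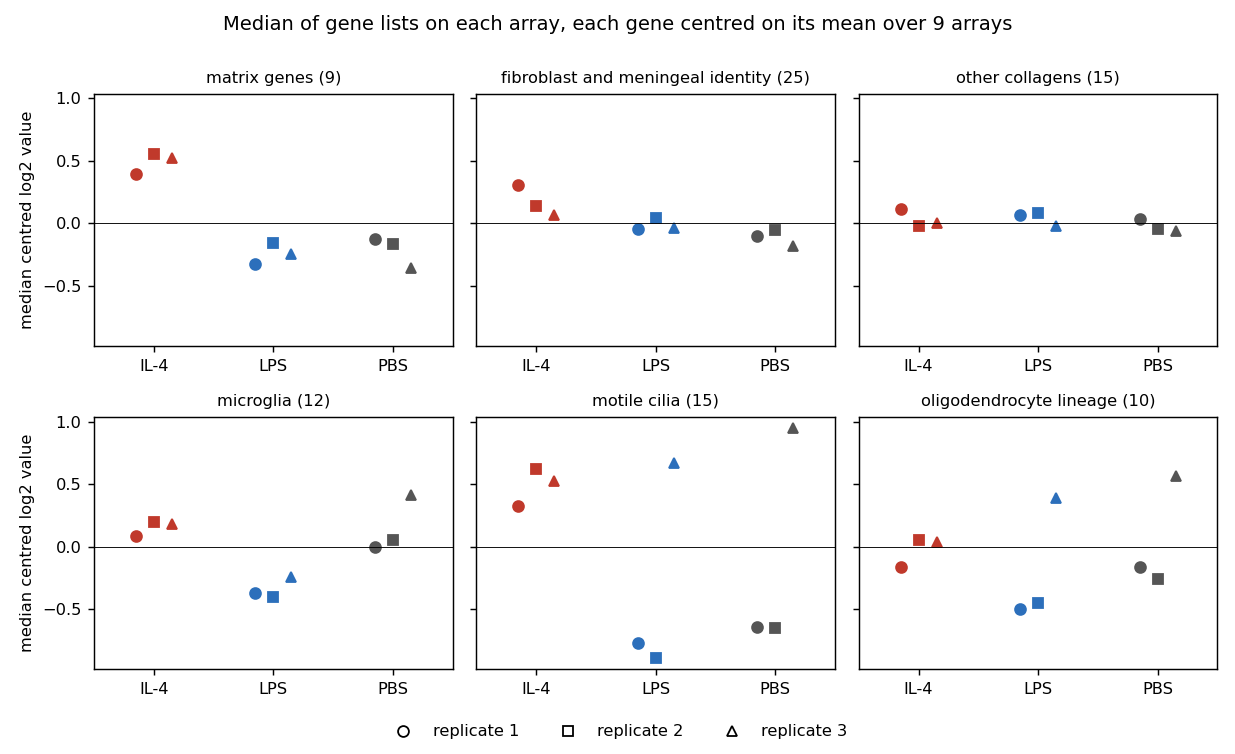
Median over the genes of 6 lists on each array (vertical axis, log2 values centred on each gene's mean over 9 arrays), with the number of genes in brackets and conditions on the horizontal axis. Marker shapes give the replicate number. The 9 matrix genes are high on the 3 IL-4 arrays (0.40 to 0.56, against −0.36 to −0.13 on the others), while motile cilia genes are high on the 3 IL-4 arrays too (0.32 to 0.62) and, as oligodendrocyte genes are, on replicate 3 of LPS and of PBS.

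The genes most like the mean of the 9 over the 9 arrays, by Pearson r as a description, were Gpc3 (0.996), Naaladl2 (0.993), Chil3 (0.990), Tmem26 (0.988), Lepr (0.988), Npvf (0.987), Wdr46 (0.987), Pdcd1lg2 (0.987), Itgb3 (0.987) and Smg5 (0.985). Chil3 and Pdcd1lg2 are markers of alternatively activated macrophages, and Chil3 averaged 9.67 with IL-4, 4.30 with LPS and 4.20 with PBS. Of 18777 other named genes 184 had an r above 0.9, among them 6 of the 25 fibroblast and meningeal genes, 3 of the 19 elastic fibre and matricellular genes, 2 of the 11 endothelial genes and none of the 15 other collagen genes. The mean of the 9, centred, was 0.43 to 0.50 on the IL-4 arrays and −0.32 to −0.15 on the others. A high r therefore largely restates a rise with IL-4, the contrast that chose the genes, and nothing more is read from these counts. Of the 9 themselves, 6 had an r above 0.9 with the mean that they form.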

How the data were processed

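RNA was measured on 9 arrays, 3 per condition. The deposited values are log2 expression values, which the authors made with RMA in the affy package (versions not given in the sources used here): background corrected, quantile normalized and summarized per gene. The table has 21212 rows, of which 18786 carry 1 gene symbol, 6 several and 2420 none. The genome build is not given in the sources used here. List genes without a named row are not analysed here.
Conditions came from the sample labels. A linear model with a mean per condition over all 9 arrays and no block (limma 3.58.1 with eBayes, R 4.3.3, residual df 6, prior df 2.38) gave differences of mean log2 values and their SE, and adjusted p-values (Benjamini-Hochberg, all rows) were held to a threshold of 0.05. The number of arrays limits the precision. The model was tested on simulated data. The 9 genes and all lists were chosen with earlier results of these data known. The genes named are the 9, the 3 largest changes past the threshold in each list and comparison, and the 10 genes most like the mean of the 9, and others are named as chosen after their values were seen. The 18 alternatives were the methods' t-test, 6 arrays in place of 9, an intensity trend, quantile normalization, subtracted array medians, a filter on dim rows (7071 left out, 14141 kept, all 9 genes among them), replicate blocks, each array left out, and replicate 3 of LPS and PBS left out. The filter used the mean over all 9 arrays, the IL-4 arrays included. Passing it therefore does not show that a gene is above background without IL-4.
Whether the replicate numbers pair arrays was checked from deviations from condition means over all rows. For LPS and PBS, arrays with equal numbers had r of 0.58, 0.65 and 0.80, and the block took the numbers to pair LPS with PBS. However, LPS replicate 2 with PBS replicate 1 gave 0.605, and LPS replicate 1 with PBS replicate 2 gave 0.542. Deviations within a condition cancel out, so the shared split of replicate 3 alone makes replicates 1 and 2 alike. Numbers 1 and 2 are therefore not shown to pair. IL-4 arrays did not pair with PBS (0.34, −0.26 and 0.075).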

Additional observations from a re-analysis of the deposited data

Results flagged for a closer look

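Ogn and Foxc1 were apart in opposite directions with the 2 stimuli. On all 3 IL-4 arrays Ogn lay above the PBS mean, with a difference of 0.45, and on all 3 LPS arrays below it, with a difference of −0.42. Foxc1 had a difference of 0.90 with IL-4 (3 of 3 arrays above the PBS mean) and of −0.29 with LPS (3 of 3 below). The difference between the stimuli was not tested, both use the same PBS arrays, and the IL-4 side was known when the genes were chosen.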

How the results depend on the processing

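The precision is limited by 3 arrays per condition, and replicate 3 of LPS and of PBS widened the spread. Rows called with IL-4 numbered 1146, and 716 with the methods' t-test, 466 to 2033 with 1 array left out and 6389 without replicate 3 of LPS and PBS. The number of the 9 genes past the threshold was 4 with the t-test instead of 7, 6 with medians subtracted or quantile normalization and 5 to 7 with 1 array left out, and their median difference of 0.75 was 0.65 to 0.84 with 1 array left out and 0.84 without both replicates 3. Rows called with LPS numbered 8014, and 5303 with the t-test, whose counts at the methods' unadjusted threshold were 152 (IL-4) and 812 (LPS). Both counts are lower than those that the paper reports at that threshold. Subtracting array medians moved the median of all rows with LPS to 0.12 and that of the 9 genes to 0.16, and the share of higher calls from 40.8% to 63.9% (IL-4: 62.0% to 50.3%). Under it 1 of the 9 genes rose with LPS (Lum, adjusted p = 0.0344 by limma) and 1 fell. The number lower with LPS was 0 with the t-test (2 at an unadjusted p under 0.05), 1 with 6 arrays, 1 with quantile normalization and 1 to 2 with 1 array left out, and the number higher 0 to 1. Differences with LPS that passed no threshold turned sign in Col1a1 (0.022 with medians subtracted, 0.10 without LPS replicate 3, 0.026 without PBS replicate 1), Col1a2 (−0.006) and Col3a1 (−0.006) without PBS replicate 3, and Postn (0.054 with medians subtracted, 0.009 with quantile normalization, 0.037 without PBS replicate 3). With 1 array left out they ran between −0.29 and 0.10 (Col1a1), −0.006 and 0.31 (Col1a2), −0.006 and 0.12 (Col3a1), and −0.15 and 0.037 (Postn). The cause was not tested.

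With the replicate block, 1 of the 9 genes (Lum) rose with LPS over 9 arrays and 1 over 6, and 287 rows and 5 of the 9 genes were called with IL-4 over 6 arrays. There it ended the IL-4 calls of Igf2 (adjusted p = 0.0580), Zic1 (0.0710), Cdh11 (0.0655), Crabp2 (0.0690), Ccn2 (0.0544), Pecam1 (0.0548), Il4ra (0.0607), Il13ra1 (0.0857) and Trem2 (0.0523), all by limma, although the numbers do not pair IL-4 with PBS. It also ended those of Efemp1 (limma adjusted p = 0.0637), Fbn2 (0.0968), Adamts3 (0.122), Serpinh1 (0.136), Prrx1 (0.0626), Slco1a4 (0.0655) and Gad1 (0.0858). It changed no other LPS call of the 9 genes.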

Other observations

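Of 4 genes for IL-4 and IL-13 receptor chains and STAT6, 2 fell with IL-4 and 2 rose with LPS, and Il13ra1 was the 1 that passed in both. Il4ra, the shared receptor chain, fell by 0.52 ± 0.073 with IL-4 (limma adjusted p = 0.00551), and Il13ra1, its partner, fell by 0.44 ± 0.066 (adjusted p = 0.00743, and 0.0566 with the methods' t-test). With LPS Il13ra1 rose by 1.46 ± 0.066 (adjusted p = 6.85e-07) and Il13ra2, the decoy receptor gene, by 0.61 ± 0.084 (adjusted p = 5.42e-04), to 3.98 with LPS, against 3.37 with PBS. The Il13ra2 row is 1 of the 7071 dimmest and is not shown to be above background. Il4ra with LPS (0.11), Il13ra2 with IL-4 (0.13) and Stat6 with either did not pass.

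By deviations from condition means over 9 arrays, the genes most like the mean of the 9 were Cdc20 (r of 0.987), Ap1m1 (0.978), Mmp3 (0.978), Ddb1 (0.973), Ttc32 (0.972), Phf23 (0.972), Gm5901 (0.968), Sdr42e1 (0.968), Kif20b (0.966) and Sppl2a (0.966), given as a description. None of the 10 is among the genes most like it by the values themselves.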
